A study of Homo sapiens with 4 samples.

Results

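The data described here are 2 of the 4 RNA sequencing libraries of the series, those of the GFP-negative cells that remained beside the cardiac cells when human embryonic stem cells (hESCs) were differentiated toward heart. The pair was chosen by its labels, RA-treated against control, and all 60234 Ensembl genes of the count table were used. Of these, 11606 genes had a CPM, the read count scaled to a common library size, of at least 10 in either library and are called counted genes.

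Both libraries came from the NKX2.5(eGFP/w) hESC line. It carries a GFP gene at the NKX2-5 locus, a homeobox gene of cardiac progenitors, so that cardiac cells fluoresce. The cells were grown as spin embryoid bodies, aggregates formed by centrifugation, in a protocol that directs them to cardiomyocytes. One culture received retinoic acid (RA) at 1 µM from day 4 to day 7 and the other received DMSO, the solvent, over the same days. Cells were sorted at day 31 on GFP, and the GFP-negative and GFP-positive fractions of each culture were sequenced. GFP-negative therefore names what a cell lacked at the sort and no single cell type, and a cardiac cell that did not fluoresce would also fall in this fraction. The RA-treated and control cells grew as separate cultures with 1 library each, so that RA and a difference between cultures cannot be told apart.

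RA, a derivative of vitamin A, binds nuclear RA receptors on DNA and directs gene expression along the head-to-tail axis of the embryo, with the HOX genes among its best-known targets. In the foregut it takes part in the specification of endoderm into liver, pancreas and stomach, and in the nervous system an excess favors posterior over anterior identity. Embryoid body cultures hold derivatives of several germ layers, and markers of each were looked for in the GFP-negative remainder.

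The RA library held 26222787 reads in genes and the control library 4371101, so that the first was 6.0 times as deep. One read was worth 0.0390 CPM under RA against 0.213 CPM in the control, and 3 reads, the most that a count of 0 is taken to hide, corresponded to 0.117 and 0.639 CPM. When the RA library was thinned to the depth of the control, 17578 genes had at least 4 reads under RA against 18102 in the control. Mitochondrial genes took 5.56% and 7.48% of the reads. With 1 library per condition no test was made. Ratios are given with their Clopper-Pearson 95% interval, which covers counting error only, and differences are on the log2(CPM + 1) scale, on which low genes differ by less than their ratio of CPM would give. A gene was called higher or lower with RA at a difference of at least 1 on that scale, referred to as 2-fold.

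The cardiac markers were compared with the labels of the sort. NKX2-5 stood at 9.74 CPM under RA against 14.5 CPM in the control among GFP-negative cells, against 463 and 593 CPM among GFP-positive cells. TNNT2, cardiac troponin T, was at 126 and 230.4 CPM in GFP-negative cells and at 4371 and 4776 CPM in GFP-positive cells. The most abundant transcripts of the RA library were those of COL3A1, COL1A1, MT-CO1, COL1A2 and FN1, and those of the control were MT-CO1, COL3A1, MT-RNR2, COL1A1 and MT-ND4. COL3A1 and COL1A1, collagens of connective tissue, were thus among the 5 genes with the most reads in both.

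Of the 11606 counted genes, 574 were at least 2-fold higher with RA (4.95%) and 369 at least 2-fold lower (3.18%). With library size alone as the scaling the numbers were 448 and 512, and without mitochondrial and the most abundant genes 498 and 561, so that which direction held more genes depended on the scaling. The median difference over all counted genes was 0.08, with quartiles of -0.21 and 0.36. On the log2(CPM + 1) scale the large differences were mostly upward: 59 genes were at least 8-fold higher and 15 at least 8-fold lower, and 25 were at least 16-fold higher while 0 were at least 16-fold lower, although the ratio of CPM of some lower genes passes 16, as it does for TYR at 92.9. Of the higher genes, 22 had no read in the control and entered through the RA library alone, as the limit of 10 CPM in either library permits. These genes are described by lists of lineage markers, which were chosen with earlier results of these data known. Since a gene with little or no signal in one library could be counted only through the other, the direction of such members was fixed by the limit, and each list with members that were not counted is also described over all its matched members. In bulk RNA of this kind, fewer cells of a type and less RNA per cell cannot be told apart.

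**Figure D1:**
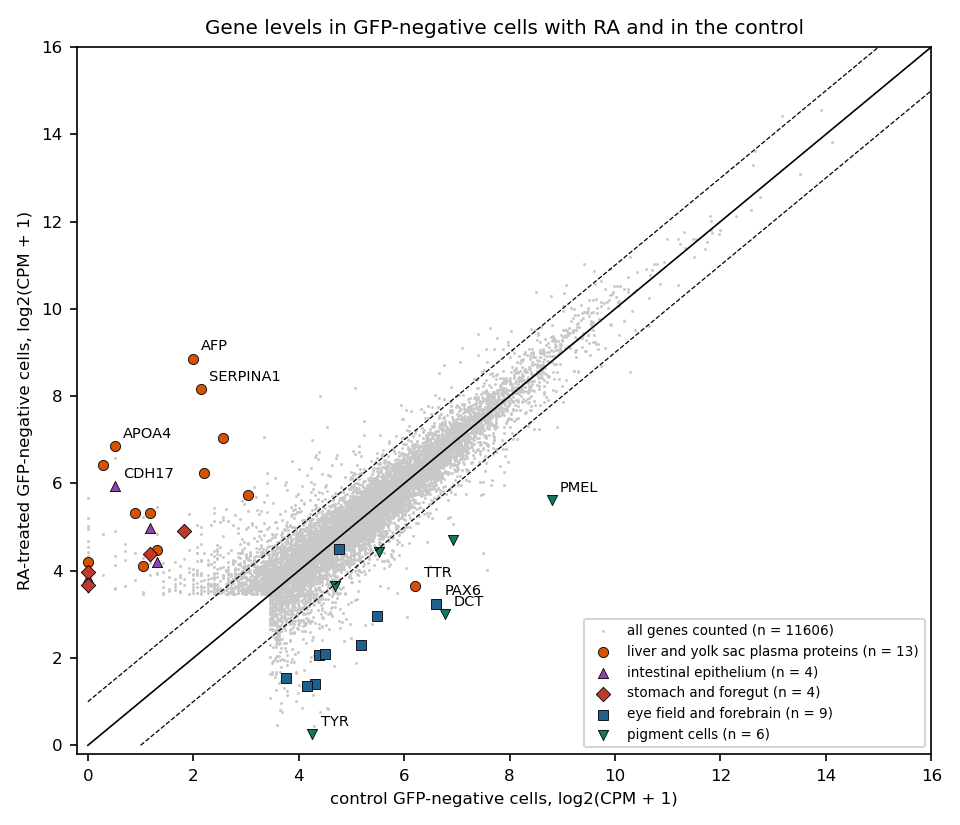
Level of each counted gene in the control library (horizontal axis) and in the RA library (vertical axis) of GFP-negative cells, both as log2(CPM + 1); the solid line marks equal levels, the dashed lines 2-fold differences, and colored symbols the counted members of 5 lineage lists. The liver, intestine and stomach genes lie above the upper dashed line, at low control levels, except for TTR, and the eye field and pigment genes lie below the solid line.

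To show regulatory sequence beside the values, promoters of the plasma protein, pigment, RA response and HOX lists described below were read from RefSeq on GRCh38.p14, whatever the difference of the gene. The 250 bases before the transcription start were searched on both strands for 3 motifs. The first was GTTAAT, a motif known from the promoters of liver genes. It was found in 6 of the 14 liver genes with a promoter in the table (AFP, ALB, SERPINA1, FGA, FGB and F2) and in 7.50% of all 27305 genes with one. Stretches of 4 of them are shown on the strand of the gene, with the motif or its reverse complement ATTAAC in capitals.

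AFP (chr4:73436065-73436118, plus strand): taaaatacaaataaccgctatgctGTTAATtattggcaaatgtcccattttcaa
ALB (chr4:73404202-73404255, plus strand): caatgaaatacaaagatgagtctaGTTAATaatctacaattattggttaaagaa
FGA (chr4:154590765-154590818, minus strand): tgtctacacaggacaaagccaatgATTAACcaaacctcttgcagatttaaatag
SERPINA1 (chr14:94388649-94388702, minus strand): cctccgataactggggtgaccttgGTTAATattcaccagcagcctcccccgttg

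The second motif was TCATGTG, the core of the M-box that the pigment cell factor MITF binds, which contains the general E-box CATGTG. It was found in 5 of 10 pigment genes (DCT, TYR, TYRP1, GPR143 and SLC24A5) and in 3.11% of all genes. The capitals mark it in 3 of them.

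TYR (chr11:89177746-89177800, plus strand): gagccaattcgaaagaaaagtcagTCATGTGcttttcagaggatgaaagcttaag
TYRP1 (chr9:12693216-12693270, plus strand): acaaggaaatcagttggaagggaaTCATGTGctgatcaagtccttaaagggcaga
DCT (chr13:94479787-94479841, minus strand): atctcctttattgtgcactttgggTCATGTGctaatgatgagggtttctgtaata

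The third was DR5, the direct repeat bound by RA receptors, searched as a pair of copies of AGGTCA in the same orientation with 5 bases between, where a copy could also read AGTTCA, or instead have GGGTCA, or else be GGTTCA. It was found in 24 genes in all (0.0879%), among them 2 of 11 RA response genes, CYP26A1 and RARB. The repeat is in capitals, in reverse complement for CYP26A1.

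RARB (chr3:25428186-25428250, plus strand): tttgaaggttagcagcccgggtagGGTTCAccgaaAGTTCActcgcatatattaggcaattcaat
CYP26A1 (chr10:93073779-93073843, plus strand): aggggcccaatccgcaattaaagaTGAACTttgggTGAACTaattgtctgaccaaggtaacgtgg

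None of the 9 HOX genes of groups 1 to 5 or the 11 of groups 6 to 13 with a promoter held these letters in this window. A match is a description of the letters, and binding was not measured.

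The endoderm was described with 5 lists of marker genes, ordered here from transcription factors to products. ONECUT2, a factor of liver and pancreas development, had 1113 reads under RA against 7 in the control, or 43.4 and 1.49 CPM, a ratio of 29.1 (14.1 to 72.5). HNF4A, a master regulator of hepatocytes and enterocytes, had 458 and 3 reads, a ratio of 27.9 (9.50 to 136). FOXA1, a pioneer factor of endoderm, had 491 and 2 reads, a ratio of 44.9 (12.4 to 372). All of these were higher, whereas SOX17, the marker of definitive endoderm and of some endothelium, was at 7.13 CPM under RA against 10.2 CPM in the control. Below the limit of 10 CPM, FOXA2, another pioneer factor of endoderm, had 240 reads under RA against none in the control (at least 14.6-fold above it). Of the 10 endoderm factors 9 were matched, of which 8 lay above 0 and 1 below, with a median difference of 3.31. The 3 that were counted and higher had at most 1.49 CPM in the control and were counted through the RA library.

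The liver and yolk sac plasma proteins followed these factors. AFP (ENSG00000081051; chr4:74296855-74321891 of GRCh37, as for all genes below), the alpha-fetoprotein of fetal liver and yolk sac, had the largest difference of all named genes. It stood at 465 CPM under RA against 2.98 CPM in the control, from 11921 and 14 reads, and at 22.6 and 0.279 CPM in the GFP-positive fraction. The ratio in GFP-negative cells was 156 (92.8 to 285), a difference of 6.87 on the log2 scale. SERPINA1 (ENSG00000197249; chr14:94843084-94857030), which encodes alpha-1-antitrypsin, was at 286 CPM under RA against 3.41 CPM in the control (ratio 84.0, 51.7 to 147). APOA4 (ENSG00000110244; chr11:116691416-116694020), an apolipoprotein of liver and intestine, had 2947 reads under RA against 2 in the control, a ratio of 270 (74.6 to 2228). ITIH2, a plasma hyaluronan carrier, had 2183 reads under RA against 1 in the control, and the interval of its ratio ran from 71.6 to 15785, which shows how little the control depth limits the upper end. APOA1 and APOB, the main proteins of high- and low-density lipoprotein, were at 131 and 39.3 CPM with RA and at 4.90 and 0.852 CPM in the control. ALB, serum albumin, was at 21.4 and 1.49 CPM, a ratio of 14.4 (6.92 to 35.9). The fibrinogen chain FGA had 445 reads under RA against none in the control (at least 27.1-fold above it), FGB 1927 and 17 reads, and FGG 419 and 5 reads.

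Of the 19 plasma protein genes 13 were counted, of which 12 were higher and 1 lower, and over all 19 the median difference was 3.17, with 18 above 0 and 1 below. The exception was TTR (transthyretin), a carrier of thyroid hormone made by liver and also by choroid plexus and retinal pigment epithelium, which had 299 reads under RA against 343 in the control. Its level was 11.7 CPM under RA against 73.0 CPM in the control, so that the control was 6.27 times as high (5.35 to 7.35). The 6 members that were not counted had between 22 and 173 reads with RA and between 0 and 11 in the control. In all, the list summed to 1382 CPM under RA against 104 CPM in the control, and at equal depth all 19 genes reached 4 reads under RA and 11 of them did in the control.

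Intestinal and gastric genes were higher as well, at lower levels in CPM. CDH17 (ENSG00000079112), the liver-intestine cadherin, was at 60.3 CPM under RA against 0.426 CPM in the control, from 1547 and 2 reads, a ratio of 142 (39.1 to 1170). VIL1, villin of the brush border, was at 30.8 and 1.28 CPM, and CDX2, the hindgut and intestine homeobox factor, at 17.3 and 1.49 CPM, a ratio of 11.6 (5.60 to 29.1). MEP1A, a brush border protease, had 338 reads under RA against none in the control. These 4 were the counted members of the 14 intestinal genes and were counted through the RA library. Of all 14, 12 lay above 0, 1 below and 1 at 0, with a median of 2.18. Among the members that were not counted, FABP2 had no read in either library, MUC13, an epithelial mucin, had the most with 197 and none in the control, and GPA33 had 15 and 4. At equal depth 10 of the 14 reached 4 reads under RA and 3 did in the control.

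Of the 12 stomach and foregut genes all 12 lay above 0, with a median of 2.43, and 4 were counted, each through the RA library. GIF (now CBLIF), the intrinsic factor secreted by the stomach, had 375 reads under RA against none in the control, and TFF1, a trefoil peptide of gastric mucus, had 304 and none, so that they were at least 22.9-fold and 18.5-fold higher. CLDN18, a tight junction protein of stomach and lung, had 512 and 6 reads (ratio 15.6, 7.13 to 42.7), and the gastric protease CTSE 745 and 12 reads (ratio 11.4, 6.46 to 22.1). The other 8 genes, among them MUC5AC and PGC, had between 7 and 176 reads under RA against 0 in the control. Of the 10 genes of pancreas and lung endoderm only PDX1, a factor of pancreas and duodenum, was counted, with 357 reads under RA against 1 in the control, a ratio of 65.3 (11.7 to 2587). Of all 10, 8 lay above 0, 1 below and 1 at 0, with a median of 0.65. The lung genes SFTPC and NKX2-1 had 1 and 9 reads under RA against none in the control.

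The 20 genes with the largest upward differences, which spanned 4.19 to 6.87, held 10 members of the lists and 10 others, of which 9 are described here. SPINK1, a trypsin inhibitor of pancreas and gut, had 2431 reads under RA against 2 in the control. HABP2, a plasma serine protease, had 1288 and 0 reads and was at least 78.6-fold higher, and ADH1B, the hepatic alcohol dehydrogenase, had 806 and 0 reads (at least 49.2-fold). SHH, the ligand sonic hedgehog of gut epithelium and of the midline, had 630 and 0 reads (at least 38.4-fold). KRT4, a keratin of stratified epithelium, had 710 and 1 reads, and LYZ, lysozyme, 944 and 5 reads. SLC39A5, SLC44A4 and TSPAN8, membrane proteins of digestive epithelia, had 573, 749 and 493 reads with RA and 0, 2 and 0 in the control. Of these 20 genes 9 had no read in the control.

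**Figure D2:**
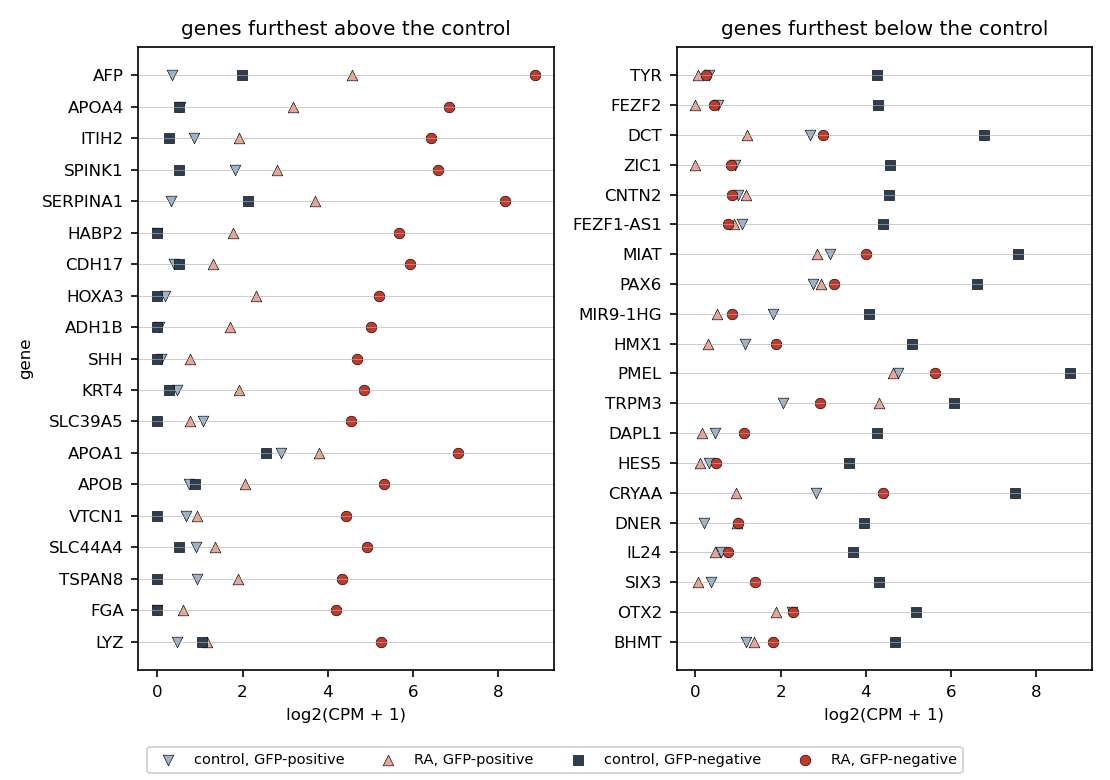
Levels in all 4 libraries, as log2(CPM + 1), of the named genes furthest above (left) and furthest below (right) the control in GFP-negative cells, in order of the difference. On the left the RA GFP-negative library stands highest for every gene, followed in most by the RA GFP-positive library. On the right the control GFP-negative library stands highest for every gene.

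Epithelial genes shared by many organs differed less. All 16 genes of simple epithelium were counted, 8 were higher and 0 lower, with a median of 1.02 and a range of 0.25 to 3.59. CLDN4, a claudin of tight junctions, was at 255 CPM under RA against 20.2 CPM in the control (ratio 12.6, 10.3 to 15.6), and EPCAM, the epithelial adhesion molecule, was at 127 and 18.1 CPM, a ratio of 7.03 (5.67 to 8.83). In contrast CDH1 (E-cadherin) differed by 0.25, at 146 and 122 CPM, and the keratins KRT8, KRT18 and KRT19 by 0.64, 0.45 and 0.50. The control fraction thus held epithelial transcripts too, at levels close to those with RA for several of the genes. Of the 11 genes of surface ectoderm and amnion 6 were counted, with 4 higher and 0 lower, and of all 11 there were 9 above 0, 1 below and 1 at 0, with a median of 1.16. GABRP, a receptor subunit of amnion and other epithelia, was at 133 and 9.16 CPM (ratio 14.5, 10.8 to 20.1), VTCN1 had 528 and 0 reads, and the epidermal keratins KRT5 and KRT14 had ratios of 1.16 (0.942 to 1.43) and 0.904 (0.532 to 1.62).

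The eye field, anterior neural and pigment genes lay in the opposite direction. PAX6 (ENSG00000007372; chr11:31806327-31839509), a master gene of the eye, had 218 reads under RA against 452 in the control, or 8.50 and 96.3 CPM, although the RA library was the deeper one. The control was 11.3 times as high (9.62 to 13.4). In the GFP-positive fraction PAX6 stood at 6.69 and 5.72 CPM, close to the RA GFP-negative level. SIX3 and SIX6, homeobox factors of the forebrain and optic vesicle, were at 1.64 and 1.56 CPM with RA and at 19.0 and 16.8 CPM in the control. OTX2, of forebrain and pigment epithelium, was at 3.90 and 35.1 CPM, and RAX, an early eye field factor, at 3.20 and 19.8 CPM. Of the 12 genes of this list 9 were counted, 8 were lower and 0 higher, and of all 12 there were 11 below 0 and 1 above, with a median of -2.43. LHX2, also a factor of the optic vesicle but expressed in other tissues, was the counted member that was not lower, at 21.7 and 26.2 CPM. Among the 3 members that were not counted, EMX2, of the forebrain, had 1 read under RA against 22, while LHX9 lay the other way, with 133 against 7 reads. The list summed to 58.8 CPM under RA against 305 CPM in the control, a control excess of 5.18-fold (4.82 to 5.57). At equal depth 11 of the 12 genes reached 4 reads under RA and all 12 did in the control, so that most of these transcripts were still detected under RA.

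Of the 13 pigment genes 11 lay below 0 and 2 above, with a median of -1.94. The 6 that were counted were all lower, with a median of -2.70, and those with under 10 CPM under RA were counted through the control. TYR (ENSG00000077498; chr11:88911043-89028927), tyrosinase, the rate-limiting enzyme of melanin synthesis, had 5 reads under RA against 85 in the control, or 0.195 and 18.1 CPM, so that the control was 92.9 times as high (38.3 to 293). DCT, dopachrome tautomerase, was at 7.01 CPM under RA against 109 CPM in the control, which was 15.5 times as high (13.1 to 18.5). PMEL (ENSG00000185664; chr12:56347889-56367101), the fibril protein of the melanosome, was at 48.2 and 444 CPM, a control excess of 9.23-fold (8.60 to 9.91), and it had the most reads of the list in the control, 2087. TYRP1, which kept 25.2 CPM with RA against 121 CPM, and GPR143 and MITF, with control excesses of 2.19 and 2.12, differed less. MITF, the regulator of this group, fell under 2-fold in some of the alternatives, where its difference ranged from -1.16 to -0.83, and GPR143 likewise, from -1.23 to -0.97. PMEL and MITF are also expressed outside pigment cells, and MITF stood higher in GFP-positive cells, at 54.0 and 67.5 CPM. Among the members that were not counted, RPE65, of mature retinal pigment epithelium, had 2 and 0 reads, and RLBP1, of the same tissue, 6 and 30. OCA2, a melanosome transporter, had 22 and 38 reads, and MLANA, a melanocyte marker, 14 and 0. Markers of the choroid plexus, which also makes TTR, were not listed.

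Neural progenitor genes were lower in 7 of 10 counted members of 14, with 0 higher. Of all 14, 11 lay below 0 and 3 above, with a median of -1.14. ZIC1, a zinc finger factor of dorsal neural tissue, had 20 reads under RA against 106 in the control, a control excess of 29.0-fold (17.8 to 49.3), and HES5, a Notch target of neural progenitors, had 10 and 52 reads (28.4-fold, 14.3 to 62.7). SOX2 differed less, at 14.3 and 33.6 CPM. NES and NCAM1, which are not confined to neural cells, had differences of -0.11 and 0.31. Among genes of neurons 6 of 14 matched were counted, with 2 higher and 2 lower. Of the 14, 12 lay below 0 and 2 above, with a median of -0.40. DCX, a microtubule protein of young neurons, was at 2.73 and 14.1 CPM and SYT1, a synaptic vesicle protein, at 5.96 and 17.7 CPM, whereas STMN2, a neuronal stathmin, was at 72.7 and 16.8 CPM (ratio 4.32, 3.45 to 5.48) and SNAP25 at 15.7 and 4.69 CPM. These 2, STMN2 and SNAP25, were the members above 0. STMN2 was also higher with RA in GFP-positive cells, at 42.5 and 1.26 CPM.

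The 20 largest downward differences, between -4.00 and -2.85, added FEZF2, a forebrain factor, with 9 reads under RA against 87 in the control, CNTN2, an axonal adhesion protein, with 21 and 105, and HMX1, a homeobox factor of eye and ear, with 69 and 154. CRYAA, the alpha-crystallin of the lens, stood at 20.2 CPM under RA against 180.2 CPM in the control, which was 8.91 times as high (7.98 to 9.96). DNER, a neuronal Notch ligand, and DAPL1, of retinal pigment epithelium, had 26 and 31 reads with RA and 68 and 86 in the control. TRPM3, a cation channel of pigment epithelium and choroid plexus, was at 6.62 and 65.8 CPM. The remaining ones included IL24 and BHMT, with 18 and 65 reads with RA and 56 and 115 in the control. All 20 had at least 52 reads in the control, which the limit of 10 CPM largely fixes, since a lower gene could be counted only through the control. Under RA some had few reads, such as TYR with 5 and FEZF2 with 9.

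**Figure D3:**
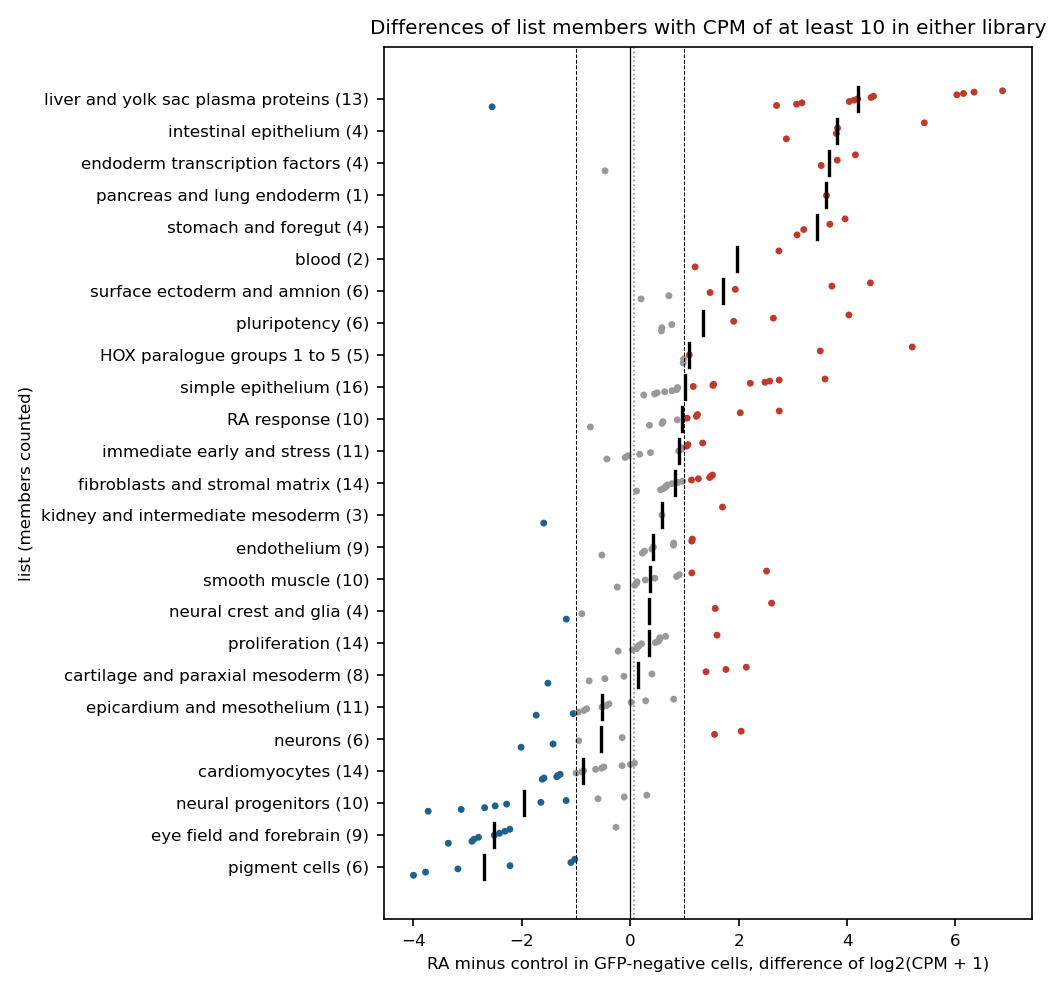
Difference of log2(CPM + 1), RA minus control, in GFP-negative cells for each counted member of 25 lists, ordered by the list median (black bar); dashed lines mark 2-fold, the dotted line the median of all counted genes, 0.08, and red and blue points members at least 2-fold higher and lower. Medians of the counted members, whose direction the limit of 10 CPM fixes where one library is near 0, run from -2.70 for pigment cells to 4.20 for liver and yolk sac plasma proteins, and 1 list, HOX groups 6 to 13, had no counted member.

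The HOX genes encode the homeobox factors of position along the body axis and lie in 4 clusters. In the HOXA cluster (11 genes) 1421 reads fell with RA and 0 in the control, so that the sum was at least 86.7-fold higher. HOXA3 (ENSG00000105997; chr7:27145803-27192202) had 919 reads under RA against none in the control, HOXA2 266, HOXA4 134 and HOXA5 30, while HOXA6 to HOXA13 had between 0 and 17. At equal depth 5 of the 11 genes reached 4 reads under RA and 0 did in the control. In the HOXB cluster, by contrast, the control held reads as well: the 10 genes summed to 3835 reads under RA against 316 in the control, a ratio of 2.22 (1.98 to 2.5). HOXB2, HOXB3 and HOXB4 were at 38.3, 55.8 and 39.6 CPM with RA and at 17.5, 27.7 and 19.6 CPM in the control, with ratios of 2.19, 2.01 and 2.02, whereas HOXB5 and HOXB6 had 171 and 94 reads under RA against none in the control. HOXB9 was at 1.05 and 2.34 CPM. HOXC and HOXD genes were near the floor, with 38 and 65 reads with RA and 2 and 3 in the control. In GFP-positive cells the HOXA cluster had 173 reads under RA against 11 in the control, and HOXB 3480 and 3442.

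Of the 15 HOX genes of groups 1 to 5, 13 lay above 0, 1 below and 1 at 0, with a median of 0.98, and 5 were counted, of which 3 were higher and 0 lower. HOXB2 was the smallest of these, at 1.09 (0.95 to 1.20 over the alternatives), and HOXB3 and HOXB4 lay just under the limit, at 0.98 each. Of the 24 genes of groups 6 to 13, 0 were counted, 21 had no read in the control, and the largest count with RA was the 94 reads of HOXB6. Groups 1 to 5 summed to 5031 reads under RA against 307 in the control (ratio 3.00, 2.67 to 3.38) and groups 6 to 13 to 328 against 14 (ratio 4.29, 2.52 to 7.93), so that most HOX reads lay in groups 1 to 5 in both libraries.

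**Figure D4:**
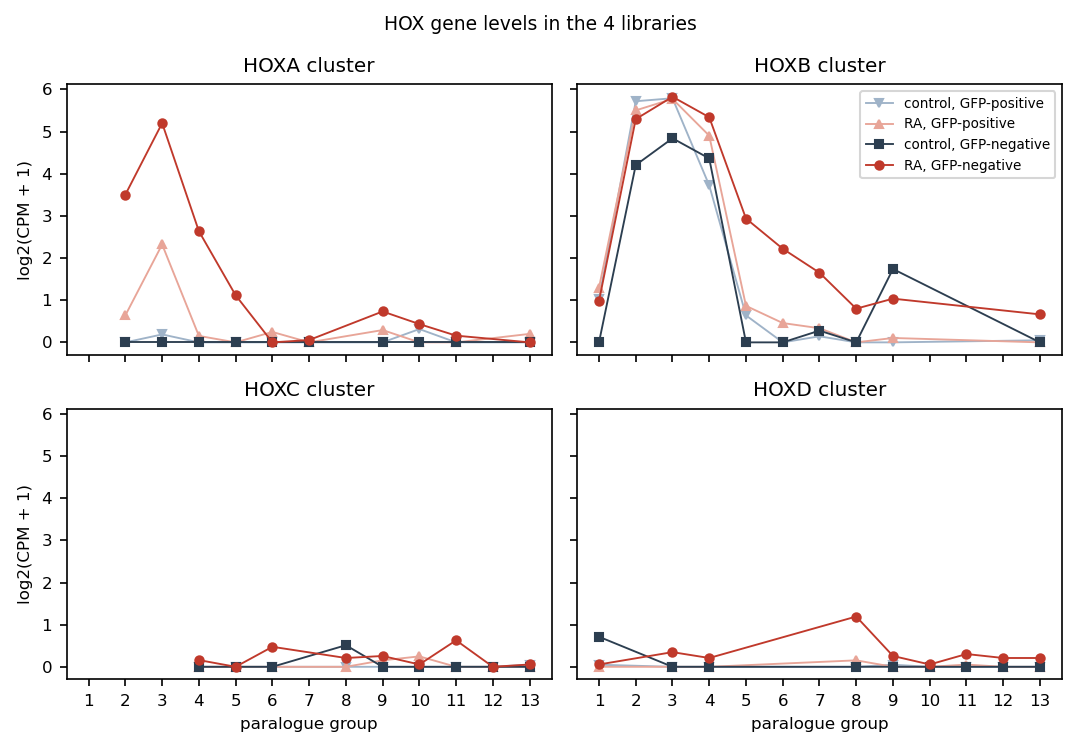
Levels of HOX genes as log2(CPM + 1) in the 4 libraries, by cluster and paralogue group (group 1 the most anterior, 13 the most posterior). In the HOXA panel the RA GFP-negative library alone rises above 3, at groups 2 and 3, and the control GFP-negative library lies at 0, while in the HOXB panel all 4 libraries have reads at groups 2 to 4.

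The RA exposure had ended at day 7, and direct RA response genes were examined at the sort. Of the 13 genes 10 were counted, 5 were higher and 0 lower, and of all 13 there were 11 above 0 and 2 below, with a median of 0.60. DHRS3, a retinaldehyde reductase that limits RA synthesis, was at 17.2 and 1.70 CPM (ratio 10.1, 5.07 to 23.5), RARB, the RA receptor beta whose promoter is shown above, at 10.9 and 1.92 CPM (5.69, 2.96 to 12.6), CRABP2, an RA carrier protein, at 197 and 82.6 CPM, and NR2F2 (COUP-TFII) at 214 and 91.4 CPM. CYP26A1, the RA-degrading enzyme with a DR5 repeat in its promoter, had 64 reads under RA against 8 in the control, and its ratio of 1.46 (0.700 to 3.54) spanned 1. NR2F1 was at 58.8 and 98.6 CPM, a difference of -0.74.

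The mesodermal and cardiac lists follow, and their small counts stand beside 4.95% higher and 3.18% lower among all counted genes. The fibroblast and matrix genes, the most abundant of all lists, were higher in 5 of 14 counted members, with 0 lower, and of all 15 there were 14 above 0 and 1 below, with a median of 0.77. DCN (decorin), POSTN (periostin) and LUM (lumican) had ratios of 2.81 (2.70 to 2.93), 2.87 (2.68 to 3.08) and 2.77 (2.61 to 2.93), COL1A1 2.39 and COL3A1 1.57. COL6A1 had a difference of 0.12 that became -0.02 with library size alone. The same 15 genes had a median of 1.89 in GFP-positive cells. Smooth muscle genes were higher in 2 of 10, with a median of 0.37. ACTG2, a visceral smooth muscle actin, was at 51.0 and 8.09 CPM, and TAGLN at 744 and 338 CPM, while MYH11 was at 28.4 and 23.2 CPM.

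Epicardial and mesothelial genes were lower in 2 of 11, with 0 higher and a median of -0.52. ITLN1 (intelectin), secreted by mesothelium, was at 372 CPM under RA against 1241 CPM in the control, 3.33 times as high (3.23 to 3.45), and TBX18, an epicardial factor, at 129 and 269 CPM. WT1, the epicardial zinc finger factor, was at 22.9 and 42.2 CPM, ALDH1A2, the RA-synthesizing enzyme of epicardium, at 103 and 148 CPM, and both were within the 2-fold limits. Cardiomyocyte genes, which the sort removes in the main, were lower in 5 of 14 counted. Of all 17, 12 lay below 0 and 5 above, with a median of -0.64 and sums of 769 and 1345 CPM, against 26461 and 27317 CPM in GFP-positive cells. TTN, MYH7, RYR2, TNNC1 and ACTN2, the members that were lower, stood 3.14, 3.14, 2.65, 2.60 and 2.59 times as high in the control.

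Cartilage and paraxial mesoderm genes were mixed, with 3 higher and 1 lower of 8 counted, and of all 13 there were 7 above 0 and 6 below, with a median of 0.16. SOX9, a chondrogenic and also an endodermal and neural crest factor, was at 51.6 and 14.5 CPM, while COL2A1, the collagen of cartilage, was at 302 and 511 CPM. Of the kidney genes 3 of 7 matched were counted, with OSR1 higher (62.5 and 18.5 CPM) and SIX2 lower (5.88 and 19.8 CPM), and of the 7 there were 5 above 0 and 2 below, with a median of 0.11. Endothelial genes were higher in 2 of 9 (TIE1 and ERG, by 1.14 and 1.15, each under 1 in at least 1 alternative), and of all 10 there were 8 above 0 and 2 below, with a median of 0.41, while the endothelial receptor KDR was at 142 and 204 CPM. Of 12 blood genes 2 were counted and higher, RUNX1 and LCP1, which are not confined to blood, whereas PTPRC, the leukocyte antigen CD45, had 27 and 6 reads, and HBZ and HBA1 none. Of all 12, 6 lay above 0, 3 below and 3 at 0, with a median of 0.10. Neural crest and glia genes had 2 higher and 1 lower of 4 counted, and of all 10 there were 6 above 0 and 4 below, with a median of 0.25. NGFR was at 104 and 34.5 CPM, ERBB3, which epithelia also express, at 63.5 and 9.58 CPM, and CRABP1 at 33.0 and 76.0 CPM. Among the members that were not counted, SOX10, the defining factor of the list, had 97 and 30 reads, or 3.78 and 6.39 CPM. S100B, with 9 and 25 reads, also lay below 0. TFAP2B and FOXD3 lay above 0, with 244 and 46 reads under RA against 4 and 0 in the control.

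Pluripotency genes were higher with RA in 3 of 6 counted members of 10, with 0 lower, and the 10 lay above 0, with a median of 0.90. The list leaves out SOX2, a factor of hESCs and of neural progenitors that is counted with the latter and was lower with RA, by a difference of -1.18. POU5F1 (OCT4), the core factor of hESCs, had 395 reads under RA against none in the control and was at least 24.1-fold higher. LEFTY1, a Nodal antagonist of hESCs, had 373 and 7 reads (ratio 9.75, 4.69 to 24.4) and LIN28A 276 and 10 (5.05, 2.71 to 10.6). NANOG had 25 reads under RA against none in the control, and DNMT3B, L1TD1 and DPPA4 had ratios between 1.52 and 1.76. In GFP-positive cells POU5F1 had 27 and 1 reads. Proliferation genes were higher in 1 of 14 (CCNA2, a ratio of 3.32, 2.35 to 4.83), a share near the 4.95% of all counted genes, and of all 15 there were 13 above 0 and 2 below, with a median of 0.21. Immediate early and stress genes, which respond to dissociation and sorting, were higher in 3 of 11, JUN, FOSB and JUNB, with a median of 0.89. FOSB and JUNB fell to 0.93 and 0.91 at the lowest over the alternatives, and under 3 of the scalings JUN was the 1 member that was higher. JUN was at 1317 and 521 CPM and FOS at 1513 and 788 CPM. The part of such handling in the lineage differences was not tested.

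The same comparison in GFP-positive cells was set beside that of GFP-negative cells. There 463 of 11186 counted genes were at least 2-fold higher (4.14%) and 187 at least 2-fold lower (1.67%). Of the genes higher in GFP-negative cells 103 were also higher in GFP-positive cells, which is 17.9% of the first list and 22.2% of the second. Of those lower, 19 were shared, 5.15% and 10.2% of the lists. Of the 11606 genes counted in GFP-negative cells, 10385 were also counted in GFP-positive cells, and the others could not be shared. Shares among the genes counted in both fractions were not computed. Over all matched members the endoderm factors, plasma proteins, stomach and intestine lists had medians of 0.49, 0.61, 0.31 and 0.08 in GFP-positive cells, against 3.31, 3.17, 2.43 and 2.18 in GFP-negative cells. The plasma protein list summed to 82.9 CPM under RA against 21.8 CPM in the control among GFP-positive cells, and AFP there was at 22.6 and 0.279 CPM. The pigment and eye field lists had medians of -0.32 and -0.43 in GFP-positive cells, against -1.94 and -2.43. Many of these genes had few reads in GFP-positive cells of either culture, where differences on this scale are small. No test of one fraction against the other was possible with 1 library each.

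**Figure D5:**
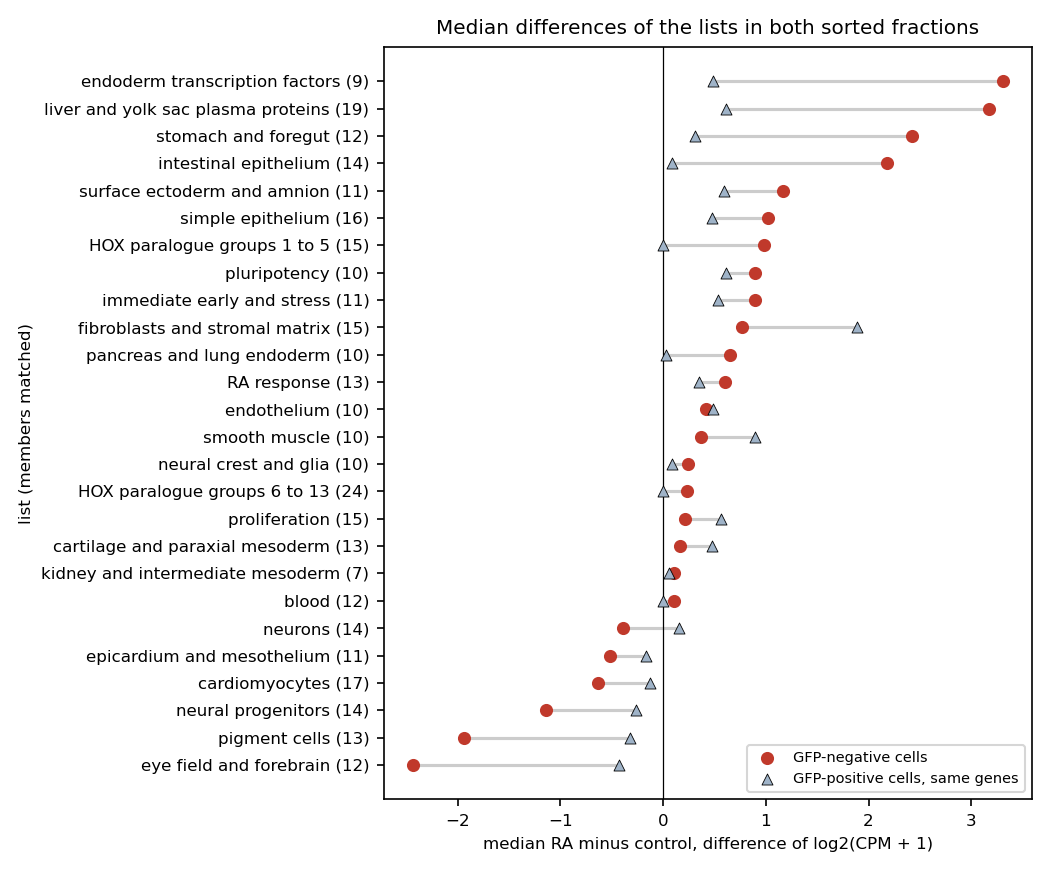
Median difference of log2(CPM + 1), RA minus control, over all matched members of the 26 lists, in GFP-negative cells (circles) and for the same genes in GFP-positive cells (triangles). The endoderm factor and liver lists stand at 3.31 and 3.17 in GFP-negative and at 0.49 and 0.61 in GFP-positive cells, the eye field list at -2.43 and -0.43, and the fibroblast list at 0.77 and 1.89.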

How the data were processed

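RNA of the 4 sorted fractions, 1 library each, was sequenced on strand-specific paired-end libraries. Per the labels and methods, the authors trimmed reads with SICKLE, aligned them to a custom hg19 genome with GSNAP, used SAMtools 0.1.18 and counted uniquely aligned reads per Ensembl gene with HTSeq 0.6.1p1 without strand. The deposited values are these raw counts. Neither the Ensembl release nor the genome changes were given in the sources used here. Unique alignment can undercount genes with near-identical copies (POU5F1, NANOG, MYH6 and MYH7, ACTC1 and ACTA2), and without strand overlapping and antisense genes are uncertain.

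Symbols and coordinates came from GENCODE on GRCh37 (92.2% of genes). NEFL and LHX1 were among those not matched, and some list members are not reported by name here. CPM used TMM factors of all 4 libraries (edgeR 4.0.16, R 4.3.3), 0.979 with RA and 1.07 in the control for GFP-negative cells. Depth was 26222787 and 4371101 reads. CPM have exact Poisson and ratios Clopper-Pearson 95% intervals, computed in Python 3.11.15 with scipy 1.17.1. Amplified reads are not independent molecules, so that intervals and floors cover counting error only. The steps were tested on simulated data. Named genes were the 20 furthest above and below the control, the members of 26 lists (340 genes) and the 5 with the most reads per library. Members and lists were chosen with earlier results of these data known. Alternatives were 5 scalings (among them DESeq2 1.42.0 size factors), pseudocounts of 0.25 and 5 CPM, thinning to equal depth, other CPM limits, whole intervals beyond 2-fold and no pseudocount with 0 reads set at the floor. Promoters are RefSeq, GRCh38.p14.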

Additional observations from a re-analysis of the deposited data

Results flagged for a closer look

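Of the genes counted in both fractions 11 were at least 2-fold higher with RA in GFP-negative and at least 2-fold lower in GFP-positive cells, and 9 the reverse. Of the named genes 3 were among them, and in each whether the fractions differed was not tested. TRPM3, a cation channel, had a difference of -3.13 in GFP-negative cells (170 reads under RA against 309 in the control) and of 2.26 in GFP-positive cells (504 and 90 reads). CRABP1, an RA carrier protein, had -1.18 (847 and 357 reads) and 1.35 (314 and 115 reads). ERBB3, a neuregulin co-receptor, had 2.61 (1630 and 45 reads) and -1.96 (298 and 1326 reads).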

How the results depend on the processing

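Of the 126 named genes beyond the 2-fold limits, 117 stayed beyond them under all 8 scalings, pseudocounts and depths. The others included MITF, GPR143, THY1, TIE1, ERG, HOXB2, FOSB and JUNB. No sign changed among the 126, but of these settings only thinning could have turned one around. A pseudocount cannot change the sign, and the scalings moved all genes by far less than the limit of 1, as given next. Library size alone moved the median of all counted genes by -0.13, as did leaving out mitochondrial and the most abundant genes. Under these and upper-quartile factors 1 immediate early gene was higher in place of 3, and the lower genes numbered 561 in the second. With a pseudocount of 5 CPM 208 genes were lower and 0 endothelial genes higher. Medians of counted members also moved with the pseudocount. At 5 and 0.25 CPM that of the plasma proteins was 2.92 and 4.68, and that of the intestinal genes 2.19 and 5.05, so that their order changed. The pigment median ranged from -2.84 to -2.11 over the alternatives. With 0.25 CPM, or with no pseudocount and 0 reads set at the floor, 5 HOX genes of groups 1 to 5 were higher in place of 3. With no filter, or at least 1 CPM, 1620 genes were higher and 1418 lower. The higher members were then 7 endoderm factors, 10 intestinal, 11 stomach, 4 pancreas and lung, 4 neural crest, 5 cartilage, 7 HOX of groups 1 to 5 and 3 of groups 6 to 13, and 10 pigment genes were lower. With at least 50 CPM the counts were 149 and 91, and with the whole interval beyond 2-fold 339 and 219. No paired analysis was possible because each group has 1 library, and none could be left out. The depth of the control limits genes at 0 there to lower bounds.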

Other observations

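Long noncoding RNAs made up 1.51% of the counted genes, 1.05% of those at least 2-fold higher with RA and 7.86% of those at least 2-fold lower (29 of 369). Most of these 29 were under 10 CPM with RA and were counted through the control alone, so that the limit fixed their direction. Noncoding RNAs under the limit in both libraries were not described. The 175 counted had a median difference of -0.28, with 120 below 0, against 0.08 for the 11022 protein-coding genes, and in GFP-positive cells the same genes had medians of -0.19 and 0.04. Among the lower ones the 5 with the largest differences were the following. FEZF1-AS1, antisense to the forebrain gene FEZF1, had 18 reads under RA against 95 in the control, MIAT 387 and 893, MIR9-1HG, the host of a miR-9 gene, 21 and 74, LINC00461 19 and 54, and RMST 33 and 70. The other 24 included KCNQ1OT1, an imprinted transcript of 760 and 294 reads. LINC00461, RMST and KCNQ1OT1 were chosen after their values were seen. Counting ignored strand, so that reads of FEZF1-AS1 and KCNQ1OT1 cannot be told apart from those of the genes they overlap.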
